A study of Rattus norvegicus with 19 samples.

Results

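The 10 genes described here encode chaperones and helper proteins of the endoplasmic reticulum (ER), the compartment in which secreted and membrane proteins fold. They were taken by symbol from a table of 15597 rat genes: Hspa5, Hsp90b1, Hyou1, Dnajb11 and Manf (the Hsp70 and Hsp90 chaperones of the ER and their partners), Pdia4 and Pdia6 (disulphide isomerases), Calr and Canx (the lectin chaperones) and Herpud1 (a membrane protein of ER-associated degradation). All 10 are in the table, and all 10 were among the 11887 genes tested. RNA was sequenced from 19 cultures in 4 groups, each culture grown from the ventral part of the spinal cord of wild-type Sprague-Dawley rats at embryonic day 14. Cultures of the polyP group (n = 5) received long-chain synthetic polyphosphate, a linear polymer of phosphate, at 100 μM. Those of the mutSOD1-ACM group (n = 5) received medium conditioned by mouse astrocytes carrying human SOD1 with the G93A change, a cause of familial amyotrophic lateral sclerosis, and those of the wtSOD1-ACM group (n = 4) medium conditioned by astrocytes carrying wild-type human SOD1. Each of these exposures lasted 90 min. The control group (n = 5) was left untreated. Every culture grew in the same medium with horse serum and chick leg extract. The labels do not name the promoter of the SOD1 transgenes. No group given fresh medium, or medium of non-transgenic astrocytes, was analysed here, so against control a conditioned medium cannot be told apart from a change of medium. The labels give an age of 7 days in vitro in one field and 4 days in vitro in another.

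The level of a gene is given in FPKM, the number of sequenced fragments scaled by the length of the transcript and the depth of the library, so levels can be set side by side between genes. Differences are on the log2(FPKM + 1) scale from a limma fit of all 19 libraries, and a gene was called at a Benjamini-Hochberg adjusted p under 0.05 over all genes tested. The relative depth of the libraries, as estimated from low genes, ran from 0.768 to 1.48, and between 11309 and 11723 genes reached 1 FPKM in a library. By clustering on all genes, done after the data were examined, the libraries fell into 3 classes that no label names. Class 1 held 2 polyP, 2 mutSOD1-ACM and 1 control library, with the myelin gene Mbp at 169 to 216 FPKM. Class 2 held 1 polyP, 1 mutSOD1-ACM, 2 wtSOD1-ACM and 2 control libraries, with Mbp at 292 to 372 FPKM. Class 3 held 2 libraries of every group, with Mbp at 6.54 to 9.62 FPKM. Classes 1 and 2 together form set 1, and class 3 is set 2. Of the labelled cells, neuron markers were plentiful, with 10 genes summing to 941 to 1695 FPKM, whereas 6 motor neuron markers summed to 3.61 to 8.30 FPKM, and Isl1, Mnx1 and Slc5a7 stayed under 1 FPKM in every library.

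Newly made polypeptides enter the ER through the Sec61 channel. The Hsp70 protein BiP (Hspa5) binds their exposed hydrophobic stretches, disulphide isomerases form and exchange their disulphide bonds, and calnexin and calreticulin hold glycoproteins through their trimmed sugars. When unfolded protein accumulates, the sensors IRE1 (Ern1), PERK (Eif2ak3) and ATF6 start the unfolded protein response. Its transcription factors ATF6 and spliced XBP1 bind ER stress response elements in chaperone promoters, together with the CCAAT-binding factor NF-Y. This response has been studied in the motor neurons of mice with mutant SOD1.

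The ER stress response elements are what these promoters are known for, and they are shown here to set the members' sequences beside their values. The promoters of 7 of the 10 genes were read from the RefSeq table (GRCr8, from 250 bases before to 50 bases after an annotated start), in 8 windows. The windows were searched on both strands for ERSE (CCAAT and CCACG with any 9 bases between them), ERSE-II (ATTGG and CCACG with any 1 base between them) and UPRE (TGACGTGG). In Hyou1 the UPRE overlapped an ERSE-II, and no other matches overlapped. The capitals below mark the fixed letters of each match, which read CGTGG and ATTGG, or CGTGG and CCAAT, where the match lies on the opposite strand. Hspa5 is at chr3:38452766-38453065 (plus strand), Hsp90b1 at chr7:23012244-23012543 (minus strand) and Hyou1 at chr8:53602632-53602931 (plus strand), each as the gene's own strand 5′ to 3′. These 3 are printed whole because they belong to the members with the largest falls with polyP.
Hspa5: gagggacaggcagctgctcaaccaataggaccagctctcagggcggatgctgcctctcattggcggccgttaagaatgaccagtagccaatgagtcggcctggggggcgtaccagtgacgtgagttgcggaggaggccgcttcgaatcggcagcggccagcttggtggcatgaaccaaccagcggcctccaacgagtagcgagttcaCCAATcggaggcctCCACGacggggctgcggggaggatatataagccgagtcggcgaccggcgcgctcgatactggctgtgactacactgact
Hsp90b1: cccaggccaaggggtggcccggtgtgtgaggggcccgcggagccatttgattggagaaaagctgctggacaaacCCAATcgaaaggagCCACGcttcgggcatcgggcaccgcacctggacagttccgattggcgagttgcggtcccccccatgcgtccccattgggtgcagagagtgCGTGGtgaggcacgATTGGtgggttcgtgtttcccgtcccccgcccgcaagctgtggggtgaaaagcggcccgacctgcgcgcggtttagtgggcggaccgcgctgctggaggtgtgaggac
Hyou1: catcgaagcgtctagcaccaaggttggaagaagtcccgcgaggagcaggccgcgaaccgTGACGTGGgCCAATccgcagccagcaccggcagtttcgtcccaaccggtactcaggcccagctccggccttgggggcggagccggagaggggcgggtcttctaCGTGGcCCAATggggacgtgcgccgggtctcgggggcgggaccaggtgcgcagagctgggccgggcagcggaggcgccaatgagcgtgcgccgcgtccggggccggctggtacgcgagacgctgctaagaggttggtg

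With positions counted from +1 at the annotated start and no position 0, the ERSE of Hspa5 lay at -43 to -25. Hsp90b1 had an ERSE at -176 to -158 and another on the opposite strand at -72 to -54. Hyou1 had ERSE-II matches on the opposite strand at -188 to -178 and at -88 to -78, the first of them overlapped by a UPRE at -191 to -184, and none in the window of its other annotated start. For the remaining members with a match, only the site and the 10 bases on each side are printed, so that the spacing of the motif parts can be compared: Calr at chr19:40213125-40213163 (plus strand), Dnajb11 at chr11:91672790-91672820 (minus strand) and Herpud1 at chr19:10614811-10614841 (minus strand).
Calr, ERSE on the opposite strand: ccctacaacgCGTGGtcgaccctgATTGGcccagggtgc
Dnajb11, ERSE-II: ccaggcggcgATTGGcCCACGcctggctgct
Herpud1, ERSE-II: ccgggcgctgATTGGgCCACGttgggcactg

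The Calr site lies far from the start, at -232 to -214. The ERSE-II of Herpud1 lies at -124 to -114, and that of Dnajb11 spans the start itself, at -10 to 1. Pdia4 had no match to any of the 3 motifs in its window. Of the promoters given here, 3 held an ERSE (Hspa5, Hsp90b1 and Calr) and 3 an ERSE-II (Hyou1, Dnajb11 and Herpud1). Those of Canx, Manf and Pdia6 are not given, so these counts are not a share of all 10 members. Over all 33469 windows of the table, ERSE was found in 22 (0.0657%), ERSE-II in 17 (0.0508%) and UPRE in 199 (0.595%). A match is a run of letters, and binding was not measured here.

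**Figure D1:**
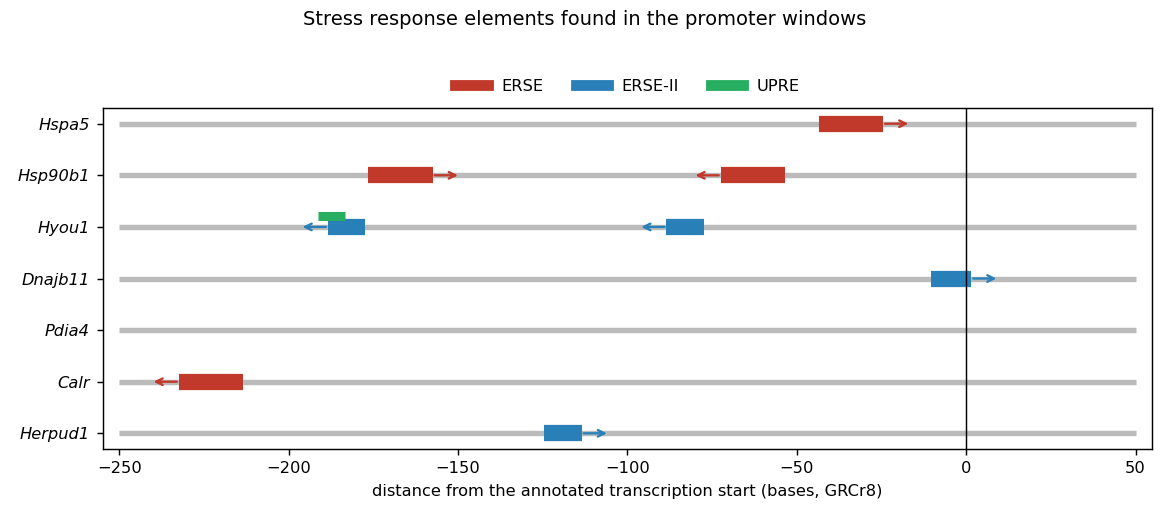
Matches to ERSE, ERSE-II and UPRE in the promoters of 7 members, drawn to scale by position relative to the annotated start in bases (x axis), with a row for each gene (for Hyou1, the window with matches). Pdia4 has no match, and the Dnajb11 match is the only one to reach the start.

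The first comparison asked what polyP changed against untreated cultures. Of the 10 genes, 6 fell and 0 rose: Hyou1, Hspa5, Hsp90b1, Pdia4, Pdia6 and Herpud1. Calr, Canx, Dnajb11 and Manf did not pass the test. Over all genes tested, 8.77% were called lower and 23.0% higher with polyP. The median log2 change of the 10 genes was -0.25, against 0.043 over all genes tested, and polyP and control values did not overlap in 5 of the 10, all of them lower, against 4.31% of all genes. In cultures of mixed cells, fewer cells of a type and less RNA per cell cannot be told apart.

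**Figure D2:**
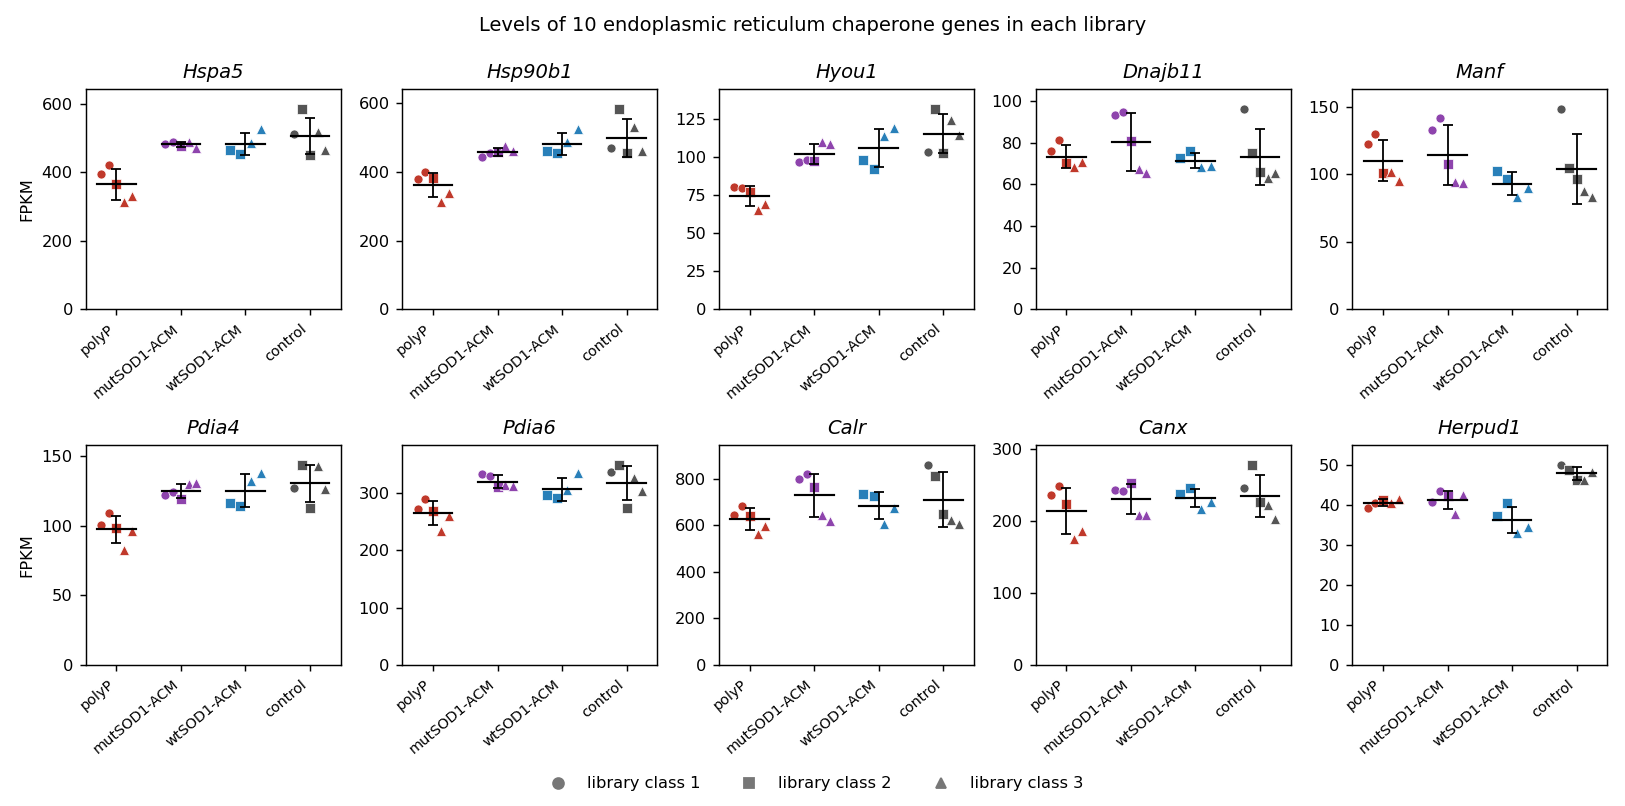
FPKM of each member (y axis, a panel per gene, each starting at 0) in the polyP, mutSOD1-ACM, wtSOD1-ACM and control groups (x axis). Each point is a library, coloured by group and shaped by library class, and lines mark the mean and the SD of a group. The 5 polyP points of Hspa5, Hsp90b1, Hyou1 and Pdia4 lie below all other points, those of Herpud1 lie below control only, and the highest Manf points are those of class 1.

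Hspa5 (identifier 25617) encodes BiP, the Hsp70 that binds unfolded chains and also holds the stress sensors inactive. Its level was 395, 422, 367, 313 and 329.9 FPKM in polyP cultures, against 512, 585, 451, 519 and 466 FPKM in control cultures. The highest polyP library was thus below the lowest control library. The means were 365 ± 45.0 FPKM with polyP and 507 ± 52.7 FPKM in control (SD, n = 5 each), a difference in log2 of -0.47 (95% interval -0.64 to -0.31, limma adjusted p = 0.000327).

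Hsp90b1 (362862) encodes GRP94, the Hsp90 of the ER, which matures integrins and Toll-like receptors among other clients. It stood at 380.3, 399, 383, 314 and 339 FPKM with polyP and at 469, 583, 456, 532 and 460.2 FPKM in control. Again no polyP library reached the lowest control library. The means of 363 ± 35.2 FPKM with polyP and 500.0 ± 55.8 FPKM in control (SD, n = 5 each) differed by -0.46 in log2 (-0.62 to -0.30, limma adjusted p = 0.000266).

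Hyou1 (192235) encodes GRP170, a large Hsp70-like protein that exchanges the nucleotide of BiP. It had the largest fall of the 10 genes. PolyP libraries stood at 79.9, 79.6, 77.1, 65.4 and 69.0 FPKM and control libraries at 103, 131, 102, 124 and 114 FPKM, with a gap between the groups. The mean was 74.2 ± 6.62 FPKM with polyP and 115 ± 12.7 FPKM in control (SD, n = 5 each), so the mean fell by 35.5%, with a difference in log2 of -0.62 (-0.81 to -0.44, limma adjusted p = 0.000127). Of all genes tested, 2.76% had a lower log2 change than Hyou1.

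Dnajb11 and Manf, which also act with BiP, did not pass the test. Dnajb11 (360734), the J-domain protein ERdj3 that hands substrates to BiP, stood at 76.0, 81.5, 70.4, 68.2 and 70.6 FPKM with polyP and at 96.2, 75.3, 66.0, 63.1 and 65.7 FPKM in control. The polyP values lay inside the range of the control values. Their difference in log2 was 0.017, with an interval of -0.23 to 0.26 (limma adjusted p = 0.925), and its sign turned when libraries were rescaled (-0.096 with equal summed FPKM). Manf (315989), a small secreted ER protein that binds BiP and has neurotrophic activity, stood at 122, 129.7, 101, 101 and 95 FPKM with polyP and at 148, 104, 96.6, 87.8 and 83.4 FPKM in control. Here too the groups overlapped, with a difference in log2 of 0.10 (-0.21 to 0.41, limma adjusted p = 0.638) that was -0.014 with equal summed FPKM.

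The spread of these 2 genes followed the library classes. Manf ran from 122 to 148 FPKM in class 1, from 96.6 to 108 FPKM in class 2 and from 82.9 to 101 FPKM in class 3, so that class 1 did not overlap the others. Dnajb11 averaged 88.4 ± 9.08 FPKM in class 1 (SD, n = 5), 73.5 ± 5.13 FPKM in class 2 (n = 6) and 67.2 ± 2.34 FPKM in class 3 (n = 8). The highest control library of each gene is the only control library of class 1. Hspa5 showed no such order, with class means of 460.3, 466 and 450.5 FPKM. The classes come from clustering these same libraries, so these values describe them without a test.

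The disulphide isomerases both fell. Pdia4 (116598), known as ERp72, stood at 101, 109, 98.5, 83.0 and 96.2 FPKM with polyP and at 127, 144, 113, 143 and 126 FPKM in control. No library of either group crossed into the other. The means were 97.4 ± 9.41 FPKM with polyP and 131 ± 13.2 FPKM in control (SD, n = 5 each), with a difference in log2 of -0.42 (-0.58 to -0.26, limma adjusted p = 0.000677).

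Pdia6 (286906), known as P5 and found in complex with BiP, stood at 272, 290.5, 269, 234 and 261 FPKM with polyP and at 336, 349.6, 274, 326 and 304 FPKM in control. The highest polyP library exceeded the lowest control library, so the groups overlapped. The mean was 265 ± 20.7 FPKM with polyP and 318 ± 29.7 FPKM in control (SD, n = 5 each), with a difference in log2 of -0.26 (-0.40 to -0.12, limma adjusted p = 0.00660). In set 1 alone the difference was -0.20 and missed the threshold (limma adjusted p = 0.126).

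The lectin chaperones did not pass the test. Calr (64202), the soluble calreticulin, which also binds calcium in the ER lumen, had the highest level of the 10 genes, with a mean of 688 FPKM over all libraries. It stood at 645, 685, 642, 563 and 597 FPKM with polyP and at 861, 812, 648, 624 and 605 FPKM in control. All 5 polyP libraries lay below the control mean, but the ranges overlapped widely, and the difference in log2 was -0.17 (-0.39 to 0.052, limma adjusted p = 0.235). With the library set as a term in the fit, the same difference of -0.17 passed (limma adjusted p = 0.0360). With the class as a term, an alternative added after seeing the data, it was -0.19 (limma adjusted p = 0.0113). After quantile normalization it was -0.42 (limma adjusted p = 0.00978). Over all genes, 2308, 2510 and 1105 were called lower in these fits, in that order, against 1043 in the main fit.

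Canx (29144), the membrane-bound calnexin, stood at 236, 249, 224, 176 and 186 FPKM with polyP and at 246, 278, 226, 222 and 202 FPKM in control. The lowest values were those of polyP libraries of class 3, and 3 of the 5 polyP libraries lay below the control mean. The difference in log2 was -0.14 (-0.35 to 0.068, limma adjusted p = 0.299). It passed in set 2 alone (-0.23, limma adjusted p = 0.0214) and with the class as a term (-0.15, limma adjusted p = 0.0369). Over all genes, 2144 and 2510 were called lower in those fits.

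Herpud1 (85430) encodes HERP, a short-lived membrane protein that organises the degradation complex around the ligase HRD1, and is the member with the lowest level, at a mean of 41.8 FPKM over all libraries. It stood at 39.2, 40.5, 41.2, 40.4 and 41.5 FPKM with polyP and at 50.1, 48.7, 46.3, 46.3 and 48.2 FPKM in control. Both groups were tight and did not overlap. The means of 40.6 ± 0.866 FPKM with polyP and 47.9 ± 1.62 FPKM in control (SD, n = 5 each) differed by -0.23 in log2 (-0.35 to -0.12, limma adjusted p = 0.00257). All 6 falls held their direction in each of the 3 library classes. The difference in log2 for Hyou1 was -0.37 in class 1, -0.58 in class 2 and -0.82 in class 3. That for Hspa5 was -0.33, -0.48 and -0.61 in the same order. Within the classes Calr was lower with polyP each time, at -0.37, -0.18 and -0.084. Manf went from lower in class 1, at -0.23, over 0.0064 in class 2 to higher in class 3, at 0.20. Each class holds only 1 or 2 libraries of a group, so these are values without a test.

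**Figure D3:**
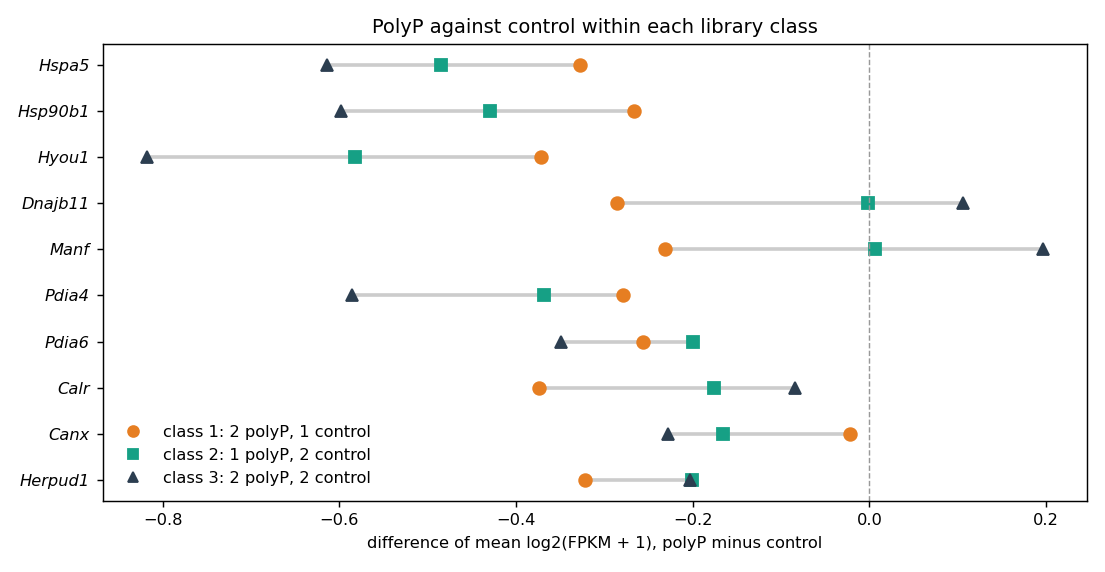
Difference in mean log2(FPKM + 1) between polyP and control (x axis) for each member (rows), taken within class 1, class 2 and class 3 (colours). For the 6 called genes every class value is below 0. For Dnajb11 and Manf the class 1 value is below 0 and the class 3 value above it.

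Other features of the libraries moved with polyP. Summed FPKM was 483794 to 515541 in polyP libraries against 446366 to 479964 in control libraries, with no overlap. Scaling each library to the same sum shifted the median log2 change of all genes from 0.043 to -0.058. All 6 falls stayed called under that scaling. It lowers each polyP library relative to each control library and so could only deepen a fall, which makes it no check on the falls. Of all genes tested, 1667 were called lower with it, against 1043 in the main fit. Markers of dividing and progenitor cells summed to 2083 to 2613 FPKM with polyP against 1229 to 1565 FPKM in control, with 3 of 6 called higher (Fabp7, Pcna and Mcm2). Most of that difference was Fabp7, a fatty acid binding protein of radial glia, at 1899 ± 207 FPKM with polyP and 983 ± 177 FPKM in control (SD, n = 5 each). In the same list the progenitor filament gene Nes lay lower, at 162 and 189 FPKM, without being called (-0.21, limma adjusted p = 0.0626), and the proliferation marker Mki67 differed by 0.033. Fibroblast markers summed to 473 to 939 FPKM with polyP against 747 to 1171 FPKM in control, with 1 of 6 called lower (Col1a1, -0.49). The sum was mostly that of the collagens Col1a1, Col1a2 (-0.46) and Col3a1 (-0.34), whereas Dcn (0.40), Lum (0.68) and Pdgfra (-0.049), none of them called, did not share a direction. Microglia markers summed to 33.4 to 113 FPKM with polyP against 31.9 to 368 FPKM in control, with 0 of 6 called, and neuron markers to 1292 to 1695 FPKM against 941 to 1549 FPKM, with 0 of 10 called. Astrocyte markers summed to 227 to 339.6 FPKM with polyP against 237 to 449.9 FPKM in control, with 0 of 6 called. Oligodendrocyte markers summed to 67.7 to 609.7 FPKM against 54.7 to 627 FPKM, with 1 of 6 called lower (Mobp, not called after quantile normalization). No marker of these 6 lists was at 0 in any library. The part of these markers in the falls was not tested.

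The next comparison asked whether medium from astrocytes with mutant SOD1 acted differently from medium of astrocytes with wild-type SOD1. Of the 10 genes, 0 were called by limma between mutSOD1-ACM and wtSOD1-ACM, where 0.463% of all genes tested were called lower and 0.00841% higher. At an unadjusted p under 0.05 there was 1, Herpud1. Differences in log2 ran from -0.069 (Hsp90b1) to 0.28 (Manf), and their 95% intervals together spanned -0.24 to 0.60. The mutSOD1-ACM group holds 2 libraries of class 1, where Manf and Dnajb11 stood highest, and the wtSOD1-ACM group holds 0. Within the classes the difference of Manf was 0.11 in class 2 and 0.12 in class 3, and 0.11 with the class as a term. That of Dnajb11 was 0.15, against 0.036 with the class as a term, and neither gene was called in that fit. Hspa5 stood at 483, 489, 476, 489 and 472 FPKM in mutSOD1-ACM cultures, against 467, 452, 487 and 528 FPKM in wtSOD1-ACM cultures, so the values were interleaved. Hyou1 stood at 96.4, 97.6, 97.1, 109.9 and 109 FPKM with mutSOD1-ACM and at 97.8, 92.3, 114 and 119 FPKM with wtSOD1-ACM. For both genes the highest and the lowest value lay with wtSOD1-ACM. A missed threshold does not show that the media act alike.

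Herpud1 was the member with the lowest p in each of the 3 comparisons among the conditioned media and control. It stood at 40.8, 43.4, 42.2, 37.6 and 42.4 FPKM with mutSOD1-ACM, at 37.2, 40.4, 33.1 and 34.5 FPKM with wtSOD1-ACM, and at the 46.3 to 50.1 FPKM given above in control. Both conditioned media lay wholly below control. With wtSOD1-ACM the mean was 36.3 ± 3.21 FPKM (SD, n = 4) against 47.9 ± 1.62 FPKM in control (n = 5), a fall of 24.3% by the means and of 0.39 in log2 (interval -0.51 to -0.28, limma adjusted p = 0.000699). Of all genes tested, 0.0673% were called lower and 0.564% higher in that comparison, and 0.488% were lower without overlap. The call was lost when only the compared groups entered the fit (limma adjusted p = 0.0661) and in set 1 alone (-0.31, limma adjusted p = 0.0976). The other 9 members were not called, with differences in log2 of -0.14 to -0.010.

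With mutSOD1-ACM the mean of Herpud1 was 41.3 ± 2.23 FPKM against 47.9 ± 1.62 FPKM in control (SD, n = 5 each). The difference in log2 was -0.21 (-0.32 to -0.10), with an unadjusted limma p of 0.000844 that did not hold over all genes (limma adjusted p = 0.836). Groups without overlap and lower were found in 0.118% of all genes in that comparison, while 0.00% were called lower and 0.0168% higher. The other 9 members were not called, with differences in log2 of -0.17 to 0.14. Between mutSOD1-ACM and wtSOD1-ACM, Herpud1 differed by 0.18 (0.066 to 0.30, limma adjusted p = 0.413). The 3 comparisons with control share the same 5 control libraries, so their falls in Herpud1 are not independent of each other. In the order of group means, Herpud1 was lowest with wtSOD1-ACM, followed by polyP and mutSOD1-ACM, which did not differ beyond their spread, and control.

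**Figure D4:**
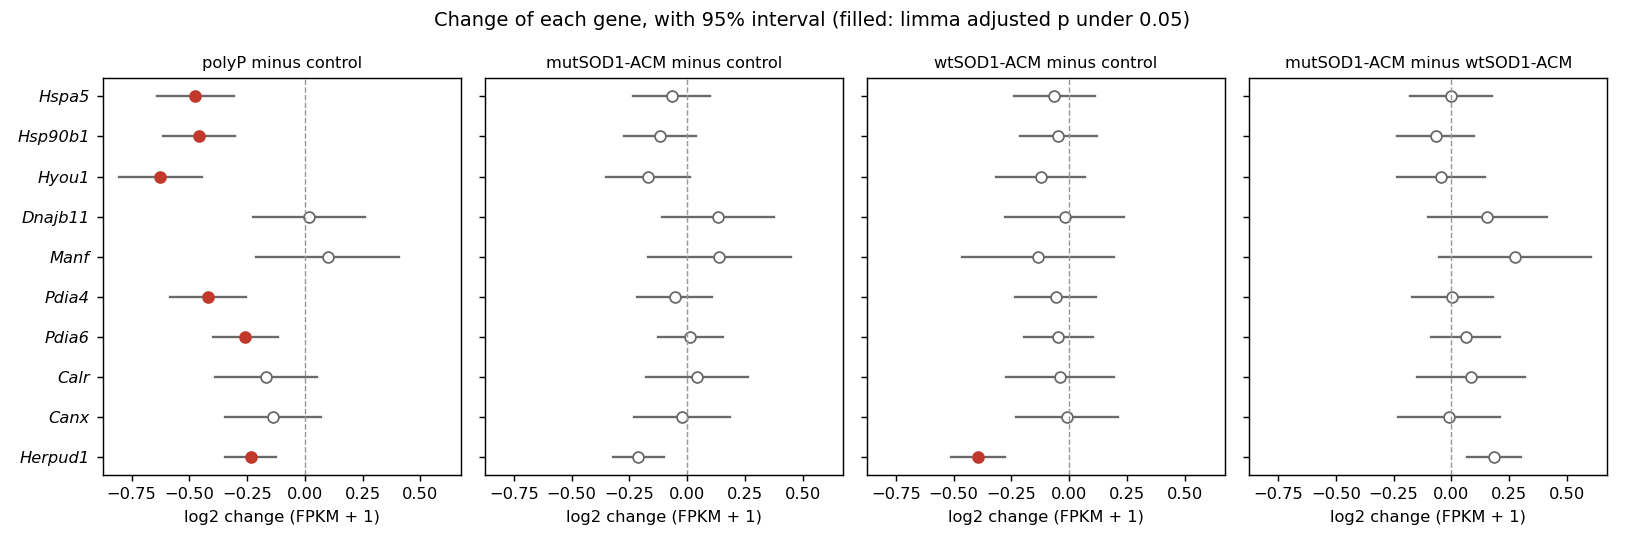
Differences in log2(FPKM + 1) of the 10 members (rows) in the comparisons of polyP with control, mutSOD1-ACM with control, wtSOD1-ACM with control and mutSOD1-ACM with wtSOD1-ACM (panels), with 95% intervals from limma. Filled points passed the test: 6 genes with polyP, Herpud1 alone with wtSOD1-ACM against control, and 0 in the other panels.

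In all 8 genes were called lower with wtSOD1-ACM than in control, and they are named here after their values were seen. That count was 1 when only the compared groups entered the fit, 0 with the replicate block, 3 in set 1 alone and 5 without wtSOD1-ACM replicate 1, 2 or 3. It was 17 with the library set and 60 with the class as a term. Besides Herpud1 they were Mthfd2 (-0.39), Chac1 (-0.71), Asns (-0.26), Sesn2 (-0.67), Trib3 (-0.62) and the microRNA entries Mir1896 and Mir760. Chac1, Trib3, Asns and Sesn2 are known targets of ATF4, the factor downstream of PERK and other kinases of eIF2α. Chac1 averaged 30.5 ± 4.32 FPKM with wtSOD1-ACM (SD, n = 4) and 50.3 ± 5.29 FPKM in control (n = 5, limma adjusted p = 0.00146). Trib3 averaged 2.42 ± 0.469 FPKM with wtSOD1-ACM and 4.25 ± 0.578 FPKM in control (limma adjusted p = 0.0134). With mutSOD1-ACM both genes also lay below control without overlap and were not called. Chac1 averaged 33.3 ± 4.74 FPKM with mutSOD1-ACM (-0.59 against control, limma adjusted p = 0.0905) and Trib3 2.75 ± 0.367 FPKM (-0.49, limma adjusted p = 0.533). Between mutSOD1-ACM and wtSOD1-ACM the differences were 0.12 for Chac1 and 0.14 for Trib3, with a limma adjusted p of 0.998 for each. Ppp1r15a, the regulatory subunit GADD34 of the eIF2α phosphatase, went the other way, at 68.3 ± 1.56 FPKM with wtSOD1-ACM and 54.9 ± 4.38 FPKM in control (0.31, limma adjusted p = 0.0151). Atf4 itself (-0.13), Ddit3 (-0.12), Eif2ak3 (-0.018), Atf6 (-0.051), Xbp1 (-0.045) and Ern1 (0.23) were not called with wtSOD1-ACM against control.

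The series title asks what polyP and mutSOD1-ACM have in common, and the 2 exposures were set against each other. Of the 10 genes, 5 were lower with polyP than with mutSOD1-ACM, and in each of the 5 the groups did not overlap. Over all genes tested, 4.90% were called lower and 14.8% higher, and 3.92% were lower without overlap. Hyou1 differed by -0.46 in log2 (-0.64 to -0.27, limma adjusted p = 0.00262) and Hspa5 by -0.41 (limma adjusted p = 0.00308). Pdia4 differed by -0.37 (limma adjusted p = 0.00500), Hsp90b1 by -0.34 (limma adjusted p = 0.00540) and Pdia6 by -0.27 (limma adjusted p = 0.00985). Hsp90b1 stood at 443, 456, 459, 476 and 461 FPKM with mutSOD1-ACM, above the highest polyP library. Pdia6 stood at 333, 331, 311, 313 and 312 FPKM with mutSOD1-ACM, again above the 234 to 290.5 FPKM of polyP. Herpud1 was the exception among the genes that fell with polyP, at -0.024 (-0.13 to 0.087, limma adjusted p = 0.818).

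In this comparison libraries of the same replicate number deviated together (r of 0.688 to 0.764 across genes). Each such pair also lay in the same library class. Each polyP library correlated best with the mutSOD1-ACM library of its own number, also in classes 1 and 3, which hold 2 libraries of both groups. The labels state no pairing, so the main fit holds no term for it. With the number as a block, Calr was called as well (-0.21, limma adjusted p = 0.00358, against 0.175 without the block), at 800.0, 822, 763, 643 and 619 FPKM with mutSOD1-ACM. In set 1 alone, with 3 libraries a group, 0 of the 10 genes were called. Of all 11887 genes tested, 56 were called lower and 60 higher in that fit. The limma adjusted p of the 5 ran from 0.107 to 0.168 there, at differences of -0.30 to -0.23. For Hspa5, Hsp90b1, Hyou1, Pdia4 and Pdia6 the order of group means thus had polyP at the bottom. It was also at the bottom for Calr and Canx, which were not called in the main fit. The means of mutSOD1-ACM, wtSOD1-ACM and control lay above that of polyP without passing the test among themselves. Summed FPKM was 483794 to 515541 with polyP against 466894 to 487528 with mutSOD1-ACM, and markers of dividing and progenitor cells summed to 2083 to 2613 FPKM against 1293 to 1775 FPKM, with 3 of 6 called higher and Fabp7 again the main part (1899 against 1147 FPKM). Fibroblast markers summed to 473 to 939 FPKM with polyP against 720.1 to 1270 FPKM with mutSOD1-ACM, with 1 of 6 called lower, and their part in these differences was not tested.

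The other machinery of ER folding was read from 6 lists of textbook members, compared between polyP and control. The counts of each list stand against 8.77% of all genes tested called lower and 23.0% called higher. In glycoprotein quality control, the cycle that Calr and Canx serve, 4 of 8 tested genes fell and 0 rose, with a median log2 change of -0.28 against 0.043 over all genes tested. Ganab, the catalytic subunit of glucosidase II that trims the sugars, averaged 127 ± 6.14 FPKM with polyP and 193 ± 30.9 FPKM in control (-0.58, limma adjusted p = 0.00116). Prkcsh, its other subunit, changed by -0.44, and Uggt1, which puts glucose back on unfolded glycoproteins, by -0.55. Man1b1, a mannosidase that marks them for degradation, changed by -0.33.

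Among 24 other folding genes, 4 fell and 1 rose, with a median of -0.062. P4hb, the founding disulphide isomerase, averaged 286 ± 22.2 FPKM with polyP and 349 ± 42.3 FPKM in control (-0.28, limma adjusted p = 0.00668). The sulphydryl oxidases Qsox1 (-0.38) and Ero1b (-0.28) also fell. Serp1, a small protein of the translocon induced by ER stress, rose to 81.6 ± 6.72 FPKM with polyP, against 58.6 ± 6.97 FPKM in control (0.47, limma adjusted p = 0.00258).

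The ER calcium store had 4 falls and 0 rises among 14 tested genes, with a median of -0.15. They were the pump Atp2a2 (-0.54), the ryanodine receptor Ryr2 (-0.48), the inositol trisphosphate receptor Itpr1 (-0.30) and the calcium sensor Stim1 (-0.18). The call of Itpr1 was lost after quantile normalization (limma adjusted p = 0.0535). Of 22 genes of the translocon and of N-glycosylation, 5 fell and 1 rose, with a median of 0.089. Rpn2 (-0.38) and Stt3a (-0.39), both of the oligosaccharyltransferase, and the channel subunit Sec61a1 (-0.36) fell, whereas the small channel subunit Sec61b rose (0.42).

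ER-associated degradation had 4 falls and 5 rises among 18 tested genes, with a median of 0.040. The share of rises was near the 23.0% of all genes tested that were called higher. The lectin Os9 fell (-0.35), while Herpud2, the paralogue of Herpud1, rose (0.20), as did Ufd1 (0.29) and the ATPase Vcp (0.14). The rises depended on the scaling. Of the 5, only Ufd1 was called under each of the 3 other scalings, Herpud2 was called after quantile normalization, and Vcp, Erlec1 and Nploc4 were called under none of them. The 4 falls were called under each of them, except that of Derl3 after quantile normalization (limma adjusted p = 0.0763). Each scaling lowered the log2 change of the called genes of this list, again except that of Derl3 after quantile normalization. Such a shift favours falls over rises, so the contrast does not show that the falls are the sturdier.

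Among 18 sensors and factors, 3 fell and 1 rose, with a median of -0.00083. Ern1, the gene of IRE1, stood at 4.13 ± 0.690 FPKM with polyP and 6.48 ± 1.14 FPKM in control (-0.54, limma adjusted p = 0.000740), without overlap. Atf6b (-0.25) and the protease Mbtps1 (-0.15), which cleaves ATF6, also fell. Atf4 was called higher (0.21, limma adjusted p = 0.0461), a call lost under each of the 3 other scalings. Eif2ak3 (-0.17), Atf6 (-0.037), Xbp1 (-0.12) and Ddit3 (0.088), the stress-induced factor CHOP, were not called. Splicing of Xbp1 cannot be read from values per gene. In the comparisons of mutSOD1-ACM with wtSOD1-ACM and with control, 0 genes of these 6 lists were called by limma.

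**Figure D5:**
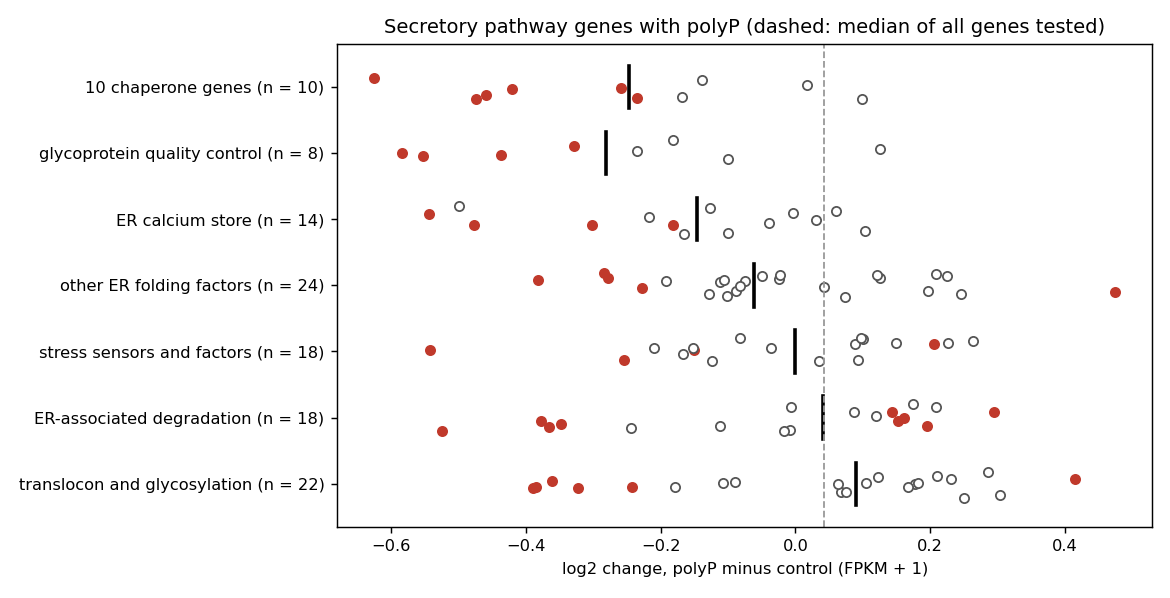
Log2 change with polyP against control (x axis) of the members and of the tested genes of 6 related lists (rows). Each point is a gene, filled where it passed the test, short bars mark the median of a row, and the dashed line marks the median of all genes tested. The glycoprotein list and the members lie mostly to the left, and the degradation list spreads to both sides.

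The members did not vary as a block. After centring within the 2 library sets, the correlation of Hspa5 with Hsp90b1 across the 19 libraries was 0.98, that of Hspa5 with Hyou1 0.97 and that of Hsp90b1 with Hyou1 0.98. Pdia6 had a correlation of 0.97 with the mean of the other 9 members, and Hspa5 and Pdia4 had 0.90 each. The values were 0.84 for Calr and 0.77 for Canx, and only 0.32 for Dnajb11, 0.16 for Herpud1 and 0.10 for Manf. Dnajb11 and Manf had a correlation of 0.85 with each other. The centring did not remove differences between class 1 and class 2. These values include the polyP libraries, share libraries, and are descriptions without a test. The 8 genes outside the members whose levels were most like the members' mean over the 19 libraries were Igsf8 (r = 0.96), Serpinh1, Slc27a3, Ext2 and Lfng (0.95 each), P4hb (0.95), Pdia3 and B4gat1 (0.94 each). Serpinh1 encodes the collagen chaperone HSP47 of the ER, and P4hb and Pdia3 are disulphide isomerases. Ext2, Lfng and B4gat1 encode glycosyltransferases. Serpinh1 averaged 317 FPKM with polyP and 401 FPKM in control.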

How the data were processed

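RNA-seq libraries of 19 rat spinal cord cultures were compared. The authors deposited 1 table of FPKM per gene and library, per the file headers. Reads were aligned with HISAT to rn6, per the submitters' processing notes. Not given in the sources used here are the aligner's version, the tool that made the FPKM, the annotation, between-library scaling and total fragments. Relative depth was estimated from 193 low genes, of whose 1040 values 90.5% lay within 0.1 fragment of a whole fragment. The depths were fitted to these same values, so that share describes the fit and is no check on it. Per the labels, RNA came from independent cultures, which the libraries are taken to be.

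FPKM are not counts, so log2(FPKM + 1) was tested in R 4.3.3 with limma 3.58.1 (statmod 1.5.0), with group as the only term and trended, robust empirical Bayes. A gene was tested at 1 FPKM or more in at least 4 libraries. P-values are two-sided, adjusted by Benjamini-Hochberg. The fit was also run on simulated data with independent noise and no library classes, so that run does not bear on calls under such classes. Promoters are from RefSeq (GRCr8), a build other than that of the files; 1 further promoter is not reported here. The table has no sample column outside the 19 libraries.

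The text names all 10 members, at most 4 called genes of smallest p per list and comparison, 6 sensors and factors whatever their result (Ern1, Eif2ak3, Atf6, Xbp1, Atf4 and Ddit3), and the 8 genes most like the members. Further list genes, named beside a marker sum, a lost call or another comparison, were chosen after their values were seen. Members and lists were chosen with earlier results of these data known. Only for polyP and mutSOD1-ACM did the deviations from the group means of every same-numbered pair correlate over 0.1. Each such pair also shared a library class, and each polyP library correlated best with its own number, also where its class held another mutSOD1-ACM library. The labels state no pairing, so the replicate number entered only as an alternative block. Alternatives were the pseudocount, filter, scaling, moderation, samples fitted, library set or class, replicate block and leaving out each library.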

Additional observations from a re-analysis of the deposited data

How the results depend on the processing

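In the 33 alternative settings, the 50 differences between groups (10 genes in 5 comparisons) changed sign 78 times in 1650 values, 0 times for a called value. The largest such value had a size of 0.096, and 68 of the 78 were among uncalled values outside polyP against control. Part of the 1650 values could not change sign. Another filter or moderation, a fit of only the compared groups, or leaving out a library of neither compared group does not alter a difference. The count of 6 lower genes with polyP against control was 6 without each replicate in turn and 8 with the library class as a term. Of all 11887 genes tested, 2510 were called lower with that term, against 1043 in the main fit. Leaving out each library gave 0 to 0 for mutSOD1-ACM against wtSOD1-ACM and against control, 1 to 1 for wtSOD1-ACM against control and 5 to 5 for polyP against mutSOD1-ACM. These ranges include the fits without a library of neither compared group, in which only the shared estimate of the spread could move. Lower genes with wtSOD1-ACM against control numbered 0 with only the compared groups, in set 1 alone and with the replicate block (Herpud1 at a limma adjusted p of 0.231). Lower genes with polyP against mutSOD1-ACM numbered 0 in set 1 alone and 6 with the replicate block. Over all 11887 genes tested, 56 were called lower in set 1 alone and 2118 with the block. In set 2 alone, which has fewer libraries than set 1, 1836 were called lower. In set 2 alone 1 of the 10 genes rose with polyP against control, Manf (0.20, limma adjusted p = 0.028). Of all 11887 genes tested, 3336 were called higher in that fit. The causes of these shifts were not tested.

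The uncalled differences that turned in polyP against control were those of Dnajb11 and Manf. Dnajb11 stood at -0.096 with equal summed FPKM, -0.045 with median-of-ratios scaling, -0.049 with quantile normalization, -0.043 in set 1 alone and -0.036 with the class as a term. Leaving out a library gave Dnajb11 -0.032 (without control replicate 4) at the lowest and 0.12 (without control replicate 1) at the highest. Manf stood at -0.014 with equal summed FPKM. Herpud1 in polyP against mutSOD1-ACM was 0.035 in set 2 alone. Over all genes, polyP against control gave 1043 lower and 2736 higher calls, 1667 and 1404 with equal summed FPKM, 1474 and 1912 with median-of-ratios scaling, 1105 and 2320 with quantile normalization, and 1769 and 3170 with the replicate block. The block changed no other call of a member. Outside polyP against mutSOD1-ACM, each comparison had a pair of same-numbered libraries that correlated under 0.1 (0.068 for replicate 2 of polyP and control), and not every library correlated best with its own number, so the numbers are not taken to pair them. Depth limits only genes of low FPKM, and absolute depth is unknown.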

Other observations

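Beyond the members, 31 genes of the promoter table held an ERSE or ERSE-II, and 19 of them were tested. With polyP against control 3 of these 19 fell and 5 rose, where 8.77% of all genes tested were called lower and 23.0% higher. The share of rises was thus near that of all genes. The median log2 change of the 19 was 0.094, against 0.043 over all genes tested. The falls were those of Nucb1, a calcium-binding protein of the Golgi (-0.33), Derl3, of the retrotranslocation machinery (-0.37, not called after quantile normalization, limma adjusted p = 0.0763), and the oxidase Ero1b (-0.28). The 5 that rose were Hnrnpa3 (0.45), Ggct (0.39), Birc5 (0.54), Rcl1 (0.18) and Ankmy2 (0.19). Dnajc3 (-0.025), Creld2 (-0.11) and Xbp1 (-0.12), which are textbook targets of the unfolded protein response and hold an ERSE, were not called. These genes were named after their values were seen.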
